A study of Mus musculus with 12 samples.

Results

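Immediate early genes are the genes that cells switch on first, from transcription factors already in place, when a signal arrives. The 10 taken here were chosen by name as rows of the read-count table, Fos, Fosb, Jun, Junb, Egr1, Egr2, Ier2, Dusp1, Nr4a1 and Arc, out of 23965 gene rows, and all 10 passed the filter on low counts. RNA had been sequenced from neurospheres, floating cultures of neural progenitors, that came from the ventral midbrain at stage E11.5 of the outbred mouse stock CD-1 and had been expanded for 3 days. They then spent 5 h in N2 medium with DMSO (control), with GW3965, with CT99021, or with both compounds. GW3965 activates the liver X receptors, and CT99021 (also called CHIR99021) inhibits the kinase GSK3 beta, which raises beta-catenin. Every group had 3 libraries with the numbers 1 to 3 in the labels. Nothing in the labels makes the 3 separate cultures; the p-values therefore describe the scatter of these libraries and may cover technical scatter only. No dose is given in the labels used here, and no time point other than 5 h was sampled.

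In neural cells the immediate early genes are known as readouts of growth factor, calcium and cAMP signals. ERK and its downstream kinases act on serum response factor and its Elk partners at CArG boxes, and cAMP response element binding protein (CREB) acts at the sequence TGACG and its palindrome TGACGTCA. The products are transcription factors that carry the signal on, proteins that end it, and in the case of Arc a synaptic protein. Their RNAs are short-lived and are sensitive to handling of cells as well as to added agents.

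Promoters are shown for 5 members to let a reader see these elements: Fos, Fosb, Dusp1 and Nr4a1, which were lower in all 6 ratios of same-number libraries that set CT99021 against control or both compounds against GW3965, and Egr2, which was not. They were chosen for printing after these values were seen. Each is the 250 bases before the start site, 5′ to 3′ on the gene's strand, from RefSeq on GRCm38.p6, with capitals marking TGACG on either strand (CGTCA when read on the strand shown) and the CArG box.
Fos (chr12:85473640-85473889, plus strand): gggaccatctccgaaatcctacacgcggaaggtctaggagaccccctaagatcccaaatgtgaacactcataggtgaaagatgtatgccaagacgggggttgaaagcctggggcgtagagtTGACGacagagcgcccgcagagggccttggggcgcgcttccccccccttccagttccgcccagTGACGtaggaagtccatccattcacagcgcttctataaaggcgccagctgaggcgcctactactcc
Fosb (chr7:19310046-19310295, minus strand): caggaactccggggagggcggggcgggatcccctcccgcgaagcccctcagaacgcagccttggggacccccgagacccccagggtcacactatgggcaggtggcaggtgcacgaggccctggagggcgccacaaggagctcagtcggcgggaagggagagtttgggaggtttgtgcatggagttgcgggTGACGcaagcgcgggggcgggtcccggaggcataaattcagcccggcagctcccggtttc
Dusp1 (chr17:26508473-26508722, minus strand): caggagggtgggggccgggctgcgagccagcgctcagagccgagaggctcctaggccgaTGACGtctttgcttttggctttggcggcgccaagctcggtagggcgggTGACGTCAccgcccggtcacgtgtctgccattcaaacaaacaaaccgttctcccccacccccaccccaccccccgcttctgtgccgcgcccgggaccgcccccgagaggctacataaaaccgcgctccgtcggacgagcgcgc
Nr4a1 (chr15:101266596-101266845, plus strand): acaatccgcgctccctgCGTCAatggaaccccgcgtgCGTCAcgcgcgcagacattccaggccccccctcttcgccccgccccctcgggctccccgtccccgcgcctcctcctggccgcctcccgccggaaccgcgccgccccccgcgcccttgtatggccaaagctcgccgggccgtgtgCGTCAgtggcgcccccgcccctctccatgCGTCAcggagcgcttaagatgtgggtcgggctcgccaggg
Egr2 (chr10:67537619-67537868, plus strand): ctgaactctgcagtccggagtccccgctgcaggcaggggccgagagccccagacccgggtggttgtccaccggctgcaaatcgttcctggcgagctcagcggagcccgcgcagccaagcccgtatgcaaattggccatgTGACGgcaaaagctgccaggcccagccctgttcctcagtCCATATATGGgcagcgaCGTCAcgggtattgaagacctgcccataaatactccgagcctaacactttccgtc

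Of the 10 members, 7 were searched for motifs, with 11 start sites in all (5 of Egr2). Ier2 and Arc had no entry in the promoter table. Promoters on chromosome 18, where Egr1 lies, were left out of the search of members, so Egr1 was not examined. In a window from 250 bases before to 50 bases after the start, TGACG on either strand was found in 6 of the 7 genes. They were Fos, Fosb, Junb, Egr2, Dusp1 and Nr4a1, with a gene counted if any of its start sites held TGACG. Counted by start site, 8 of the 11 held TGACG, beside 20.8% of all 32851 promoters. The starts of Egr2 among the 8 lie close together and share the same copies, so they are not separate observations. The full palindrome TGACGTCA, which contains TGACG on both strands, was found in Dusp1 alone (1.79% of all promoters). Of the 7 genes searched, Egr2 alone held the CArG box in this window, at 4 of its 5 start sites (1.63% of all promoters). Some of these starts share the same box. A CArG box or other element more than 250 bases before the start would have been missed in any of the 7 genes. TATAAA stood in Fos and in Junb (13.6% of all promoters). None of the 7 genes held the AP-1 site TGANTCA (7.81%), the TCF/LEF motif CTTTGAT (3.73%) or the direct repeat element of the liver X receptors (0.0152%) in this window. A match is a description of the letters; binding was not measured. All 5 of the printed promoters held TGACG, that of Egr2 included. For Egr2 the printed site was picked from its 5 start sites, and not every one of those held TGACG.

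Levels are given as CPM, counts scaled to the size of the library, and between genes as CPM per kilobase of the length listed in the table. Jun, a partner of the Fos proteins in the dimer AP-1, was highest in control libraries at 37.7 ± 11.1 CPM per kb (SD, n = 3). Egr1, a zinc finger transcription factor, followed at 26.8 ± 1.79, Ier2, a nuclear protein of the early response, at 21.9 ± 3.52, Dusp1, a phosphatase of MAP kinases, at 17.6 ± 2.72 and Fos at 12.6 ± 3.67. Junb stood at 6.95 ± 1.27 and Nr4a1, an orphan nuclear receptor, at 5.82 ± 2.56. The lowest were Arc at 1.89 ± 0.695, Fosb at 0.968 ± 0.282 and Egr2 at 0.959 ± 0.421 CPM per kb. The intervals of mean ± SD of neighbours in this order overlapped except at 2 places, between Fos and Junb and between Nr4a1 and Arc. Jun was at percentile 88.4 of the genes tested and Egr2 at percentile 13.0, so the set spans most of the range. Raw counts per library ran from 21 to 104 for Egr2 and from 26 to 107 for Fosb, against 1326 to 3585 for Jun, so the first 2 are measured with the least precision.

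The table lists, in mm9, Fos at chromosome 12 position 86814750, Fosb at 7 (19888044), Jun at 4 (94715726), Junb at 8 (87500807) and Ier2 also at 8 (87185229). Egr1 is listed at 18 (35020760), Egr2 at 10 (67000516), Dusp1 at 17 (26642535), Nr4a1 at 15 (101097176) and Arc also at 15 (74499512). Each member had 1 row and no second locus.

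Gene totals per library ran from 9646424 to 21314093 counts. Libraries that carry the same number in different groups deviated together from their group means, so fold changes, standard errors (SE), adjusted p-values, "rose" and "fell" come from edgeR's quasi-likelihood test with library number as a block, with Benjamini-Hochberg adjustment over all 15608 genes tested, unless the fit without the block is named. Genes of neural progenitors were found in every library (Sox2 at 103.2 to 238.6 CPM, Nes at 399 to 930.1 CPM), as was En1 of the midbrain (61.0 to 167 CPM). Levels differed widely within these lists. Among progenitor markers Vim stood at 1542 to 2224 CPM, but Pax6 at 4.50 to 17.6 and Hes5 at 0.503 to 8.17. Foxa2 of the midbrain list stood at 4.70 to 37.2 CPM. Summed markers of mesenchyme ran from 220.2 to 3656 CPM and of erythroid cells from 1990.1 to 10718 CPM, both higher in number 3 than in number 2 of every group. In these bulk samples, fewer cells of a type and less RNA per cell cannot be told apart.

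**Figure D1:**
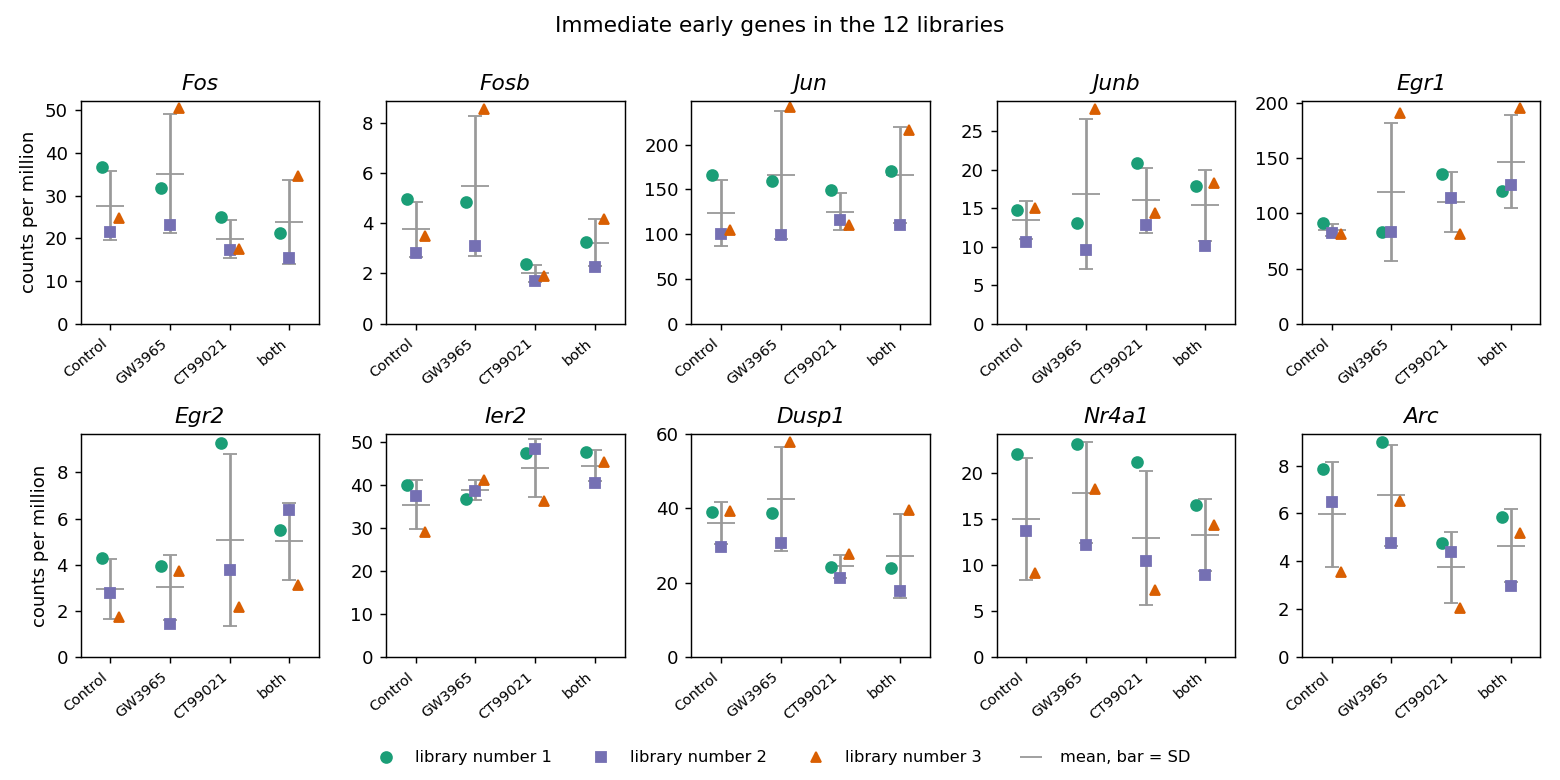
CPM (vertical axis, linear from 0) of the 10 immediate early genes in each library of the 4 groups; symbols give the library number and bars the mean and SD. Library 3 with GW3965 is the highest of all 12 for Fos, Fosb, Jun, Junb and Dusp1, and the 3 CT99021 libraries lie below the 3 controls for Fosb and Dusp1.

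Fos and Fosb had less RNA with CT99021 than in control, and with both compounds than with GW3965, in each library number. With both compounds against control this did not hold in number 3. Jun and Junb had no common direction. Fos, a leucine zipper protein that needs a Jun partner to bind DNA, stood at 36.8, 21.5 and 24.7 CPM in control libraries 1, 2 and 3 and at 24.97, 17.2 and 17.5 CPM with CT99021. It stood at 31.8, 23.1 and 50.5 CPM with GW3965 and at 21.3, 15.4 and 34.6 CPM with both compounds. The groups overlapped, yet in each of the 6 ratios between libraries of the same number, CT99021 to control and both compounds to GW3965, the library with CT99021 was lower, by 0.32 to 0.58 on the log2 scale. Fosb, the close relative of Fos, had 4.95, 2.82 and 3.49 CPM in control, 2.39, 1.70 and 1.92 with CT99021, 4.83, 3.09 and 8.55 with GW3965 and 3.24, 2.27 and 4.16 with both. All 3 CT99021 libraries lay below all 3 controls, and all 6 ratios were again below 0.

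Jun had 166, 100.3 and 105 CPM in control and 149, 116 and 110 with CT99021; with GW3965 it had 159, 99.1 and 242, and with both 171, 110 and 217. The CT99021 libraries lay within the control range, and its 6 ratios ran from -0.16 to 0.21. Junb, a Jun relative with weaker activity on many AP-1 sites, had 14.7, 10.6 and 15.1 CPM in control, 20.8, 12.8 and 14.4 with CT99021, 13.1, 9.61 and 27.9 with GW3965 and 17.8, 10.1 and 18.3 with both. Its ratios were above 0 in numbers 1 and 2 and below 0 in number 3 on both backgrounds, so the groups overlapped.

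The zinc finger genes and Ier2 were higher with CT99021 in most ratios. Egr1 stood at 91.5, 82.7 and 81.0 CPM in control, 136, 114 and 81.3 with CT99021, 83.2, 83.3 and 191 with GW3965 and 120.1, 126 and 196 with both. Libraries 1 and 2 were higher with CT99021 by 0.46 to 0.59 on the log2 scale, while in number 3 the ratios were 0.01 and 0.03. Egr2, known for hindbrain segmentation and myelination as well as for the early response, had 4.31, 2.77 and 1.74 CPM in control, 9.27, 3.77 and 2.18 with CT99021, 3.96, 1.41 and 3.72 with GW3965 and 5.52, 6.36 and 3.14 with both. It was higher with CT99021 in 5 of 6 ratios, from -0.23 to 2.08, the widest range of any member. Ier2 had 39.96, 37.4 and 29.0 CPM in control, 47.4, 48.5 and 36.2 with CT99021, 36.7, 38.6 and 41.2 with GW3965 and 47.6, 40.5 and 45.3 with both, and its 6 ratios, 0.07 to 0.37, were all above 0.

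Dusp1, which removes the activating phosphates from ERK, JNK and p38 and so ends the signals that induce it, was the member with the smallest adjusted p in every comparison of CT99021. It stood at 39.1, 29.6 and 39.4 CPM in control and at 24.3, 21.3 and 27.6 CPM with CT99021, so that these groups did not overlap. With GW3965 it had 38.6, 30.8 and 57.9 CPM and with both compounds 23.8, 17.9 and 39.7 CPM. The 6 ratios lay between -0.78 and -0.47. Nr4a1 had 22.1, 13.7 and 9.12 CPM in control, 21.2, 10.4 and 7.27 with CT99021, 23.1, 12.2 and 18.3 with GW3965 and 16.6, 8.94 and 14.4 with both. Its groups overlapped widely, because libraries 1, 2 and 3 differed more than the groups did, but each ratio for CT99021 was below 0, from -0.48 to -0.06. Arc, which controls the removal of glutamate receptors from synapses, had 7.87, 6.48 and 3.57 CPM in control, 4.77, 4.40 and 2.05 with CT99021, 8.97, 4.77 and 6.53 with GW3965 and 5.84, 2.95 and 5.18 with both, with ratios of -0.76 to -0.33.

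By direction alone, 5 of 10 members (Fos, Fosb, Dusp1, Nr4a1 and Arc) were lower with CT99021 in 6 of 6 same-number ratios, as were 16.4% of all genes tested and 14 of 50 other rapid response genes described below, and 2 (Egr1 and Ier2) were higher in 6 of 6, as were 19.8% of all genes. The 3 ratios to control and the 3 ratios to GW3965 share no library.

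**Figure D2:**
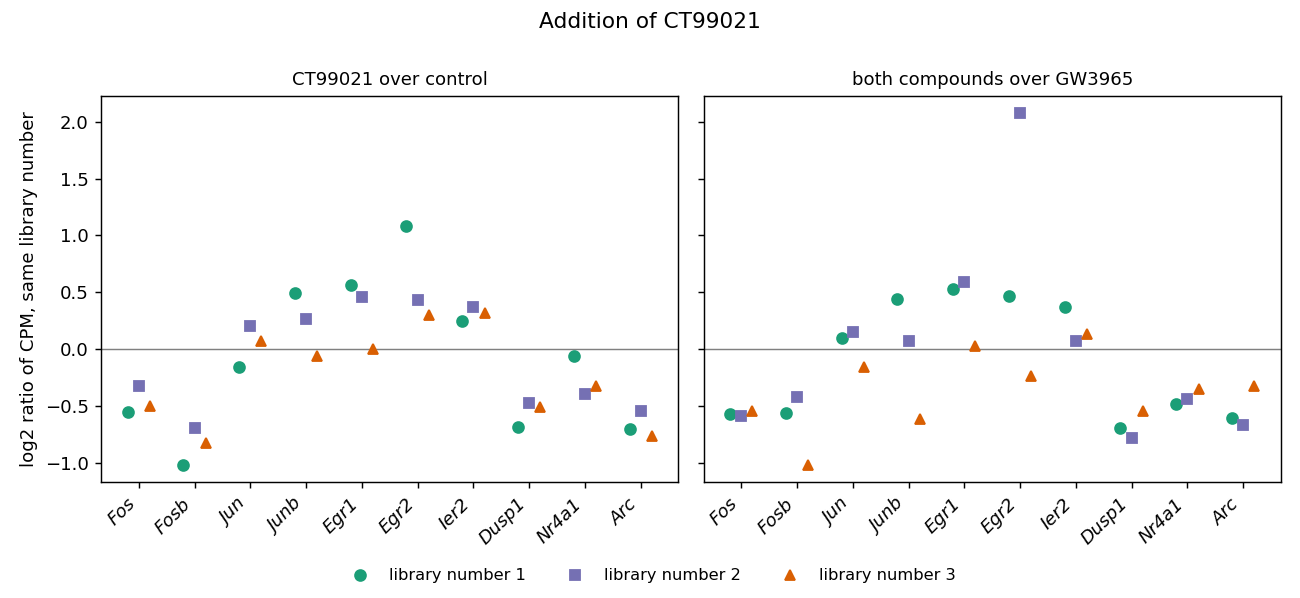
Log2 ratio of CPM between libraries of the same number for the 10 members, CT99021 over control on the left and both compounds over GW3965 on the right; symbols give the library number and the line marks no difference. Fos, Fosb, Dusp1, Nr4a1 and Arc lie below the line and Egr1 and Ier2 above it in all 6 ratios.

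For CT99021 against control, 1 of 10 members passed the test: Dusp1 fell by 0.57 ± 0.15 (log2, SE; adjusted p = 0.0308), against 15.8% of all genes called and 7.59% called lower. Fosb had -0.92 ± 0.28 (adjusted p = 0.0541), Ier2 0.31 ± 0.13 (0.130), Fos -0.47 ± 0.25 (0.232) and Egr1 0.39 ± 0.30 (0.409), the last running from 0.11 to 0.72 when 1 library was left out. Both Fosb and Dusp1 had 3 libraries below 3 controls, as did 7.62% of all genes. The median of the 10 was -0.11, beside 0.02 for all genes. Without the block 0 members passed, 1 had an unadjusted p under 0.05, and 0.0577% of all genes passed. The call on Dusp1 was lost without control library 1 (adjusted p = 0.149), control library 2 (0.136), CT99021 library 1 (0.0829) or CT99021 library 3 (0.0794).

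With both compounds against GW3965 alone, Dusp1 fell by 0.66 ± 0.15 (adjusted p = 0.0127), again the only member past the test, where 20.6% of all genes were called and 8.81% called lower. The values were -0.56 ± 0.25 for Fos (adjusted p = 0.139), -0.72 ± 0.27 for Fosb (0.0874), 0.34 ± 0.30 for Egr1 (0.452) and 0.20 ± 0.13 for Ier2 (0.300). Leaving out 1 library, with or without the block, gave 0.045 to 0.80 for Egr1 and 0.090 to 0.30 for Ier2. The median of the 10 was -0.25, beside 0.01 for all genes. Without the block 0 members passed and 0 had an unadjusted p under 0.05, and 0.0769% of all genes passed. The Dusp1 call was lost without library 1 (0.0581) or library 2 (0.0583) of the combined treatment.

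Because these comparisons rest on different libraries, the presence of CT99021 was also tested over both backgrounds, as the mean of the 2 groups with it against the mean of the 2 without it, a contrast chosen after values were seen. Dusp1 fell by 0.61 ± 0.11 (0.654-fold; adjusted p = 0.00168), Fosb fell by 0.82 ± 0.20 (0.568-fold; 0.00938) and Fos fell by 0.52 ± 0.18 (0.699-fold; 0.0448). That is 3 of 10 members lower and 0 higher, where 35% of all genes were called, 15.9% lower and 19.1% higher. The others did not pass: Ier2 at 0.25 ± 0.09 (0.0515), Arc at -0.60 ± 0.22 (0.059), Egr2 at 0.72 ± 0.30 (0.0861), Nr4a1 at -0.34 ± 0.18 (0.182), Egr1 at 0.36 ± 0.21 (0.208), Junb at 0.09 ± 0.18 (0.728) and Jun at 0.02 ± 0.17 (0.932). Without the block 0 members passed, with 3 at an unadjusted p under 0.05, and 4.1% of all genes were called.

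Dusp1 and Fosb passed in 12 of 12 fits that each left out 1 library, with adjusted p of at most 0.00718 and 0.0357. Fos passed in 4 of 12. Its adjusted p was 0.134 without control library 1, 0.0992 without control library 2, 0.0631 without GW3965 library 2, 0.0981 without GW3965 library 3, 0.0501 without CT99021 library 2, 0.0815 without CT99021 library 3, and 0.115 and 0.0972 without libraries 1 and 2 of the combined treatment. With the 4 libraries numbered 3 left out, 9 of 10 members passed, 5 lower and 4 higher, beside 42.7% of all genes. In that fit Egr1 rose by 0.52 (adjusted p = 0.000728), Egr2 by 1.01 (0.0228), Junb by 0.32 (0.0348) and Ier2 by 0.25 (0.0138), while Nr4a1 fell by 0.36 (0.0138) and Arc fell by 0.65 (0.0213). Jun was the exception at 0.06 (adjusted p = 0.462).

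Markers of other cells and of differentiation moved in the same comparison. Over both backgrounds 5 of 6 mesenchyme markers rose with CT99021 (median log2 change 0.79) and 7 of 9 neural progenitor markers fell (median -0.40), with 4 of 5 neuronal markers lower and 1 higher (median -0.31). Of the other lists, 2 of 6 midbrain, 1 of 5 endothelial and 1 of 4 microglial markers were lower and 0 of 4 erythroid markers passed. Of all genes 19.1% rose and 15.9% fell in this fit. Without the block 0 of 6 mesenchyme markers passed, and 1 each of the 9 progenitor (Sox3), 5 neuronal (Elavl4) and 6 midbrain (Lmx1b) markers did, all lower. Summed mesenchyme markers ranged over 220.2 to 2785 CPM in control, 234 to 2410.2 with GW3965, 327 to 3656 with CT99021 and 889 to 2997 with both. Summed progenitor markers ranged over 2783 to 4351, 3013 to 4434, 2557 to 3653 and 2669 to 3690.0 CPM in the same order. Of all markers only P2ry12 of microglia was at 0, in 4 libraries. The part of these cells in the changes of the immediate early genes was not tested.

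With GW3965 all members were higher in the libraries numbered 3, while in numbers 1 and 2 they had no common direction. In number 3, all 10 members were higher with GW3965 than in control and all 10 were higher with both compounds than with CT99021 alone, as were 34.3% of all genes in both ratios and 37 of 50 other rapid response genes. The medians of the 10 were 1.01 and 0.97 on the log2 scale. In numbers 1 and 2 the 4 medians were all below 0, the lowest at -0.19, with 2 and 5 of 10 members above 0 against control and 4 and 3 of 10 against CT99021. Fosb was higher with both compounds than with CT99021 alone in all 3 numbers (0.42, 0.39 and 1.07). A ratio above 0.5 in both comparisons of number 3 was found for 8 of 10 members (all but Junb and Ier2), beside 3.53% of all genes and 21 of 50 other rapid response genes. In any of the 4 ratios of numbers 1 and 2 it was found for Egr2 alone, beside 15.5% of all genes.

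The size in number 3 was largest for Egr1 (1.24 and 1.27), Fosb (1.26 and 1.07), Jun (1.20 and 0.97), Fos (1.02 and 0.98), Arc (0.85 and 1.29) and Nr4a1 (0.99 and 0.97), with Egr2 (1.04 and 0.50) and Junb (0.89 and 0.34) next and Dusp1 (0.55 and 0.52) and Ier2 (0.50 and 0.32) last. Egr1 shows the contrast plainly: 83.2 and 83.3 CPM with GW3965 in libraries 1 and 2, beside 91.5 and 82.7 in control, and 191 CPM in library 3. Control library 3 was the lowest control for Egr1, Egr2, Ier2, Nr4a1 and Arc and the highest for Junb and Dusp1.

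For GW3965 against control 0 of 10 members passed the test with or without the block; the lowest adjusted p with the block was 0.959 and the median log2 change 0.25. The share of all genes called was 0.0192% with the block and 0% without it. For both compounds against CT99021 0 members passed, the lowest adjusted p being 0.734 with the block, beside 0.0192% of all genes with and 0% without it. Averaged over both backgrounds, a contrast chosen after values were seen, 0 passed either way (lowest adjusted p = 0.681 with the block), beside 0.0384% and 0.0128% of all genes. Counts at an unadjusted p under 0.05 were 0, 1 and 1 of 10 in these 3 contrasts with the block and 0, 0 and 0 without. With the libraries numbered 3 left out, GW3965 against control ranged from -0.43 for Egr2 to 0.04 for Fosb, with 8 of 10 below 0.

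**Figure D3:**
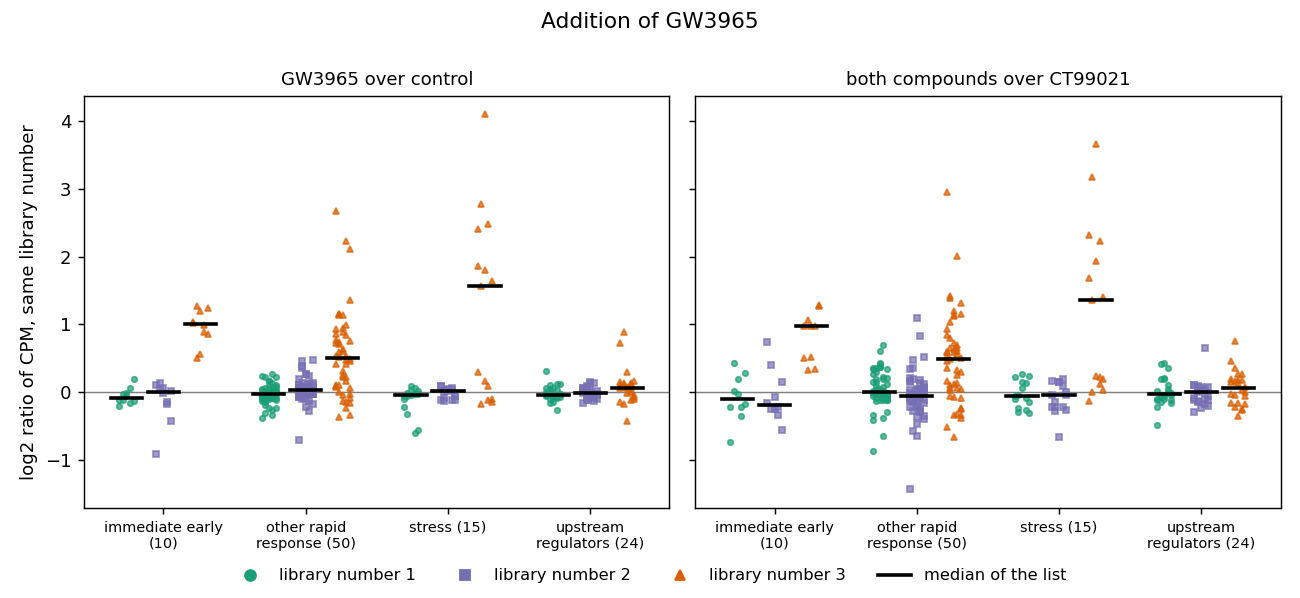
Log2 ratio of CPM between libraries of the same number, GW3965 over control on the left and both compounds over CT99021 on the right, for each gene of 4 lists (points; list size in brackets); symbols give the library number and black lines the median of the list. The medians of the immediate early genes are 1.01 and 0.97 in number 3 and below 0 in numbers 1 and 2, and the stress genes are spread widely above 0 in number 3.

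Stress genes moved with this pattern. Of 15 listed, 11 were above 0 in number 3 for GW3965 against control and 14 for both compounds against CT99021, with medians of 1.56 and 1.36, while in numbers 1 and 2 the medians lay between -0.06 and 0.01. The list divided, as seen only after its values were known. The 8 genes tied to the integrated stress response, which ATF4 drives (Ddit3, Trib3, Chac1, Asns, Atf4, Atf5, Sesn2 and Vldlr) had ratios of 1.36 to 4.10 in number 3. Among the 7 heat shock genes the ratios in number 3 ran from -0.18 (Dnajb1) to 0.30 (Hspb1). The part of the stress response, of handling or of a batch in the higher immediate early genes of these libraries was not tested. The higher ratios of these stress genes in number 3 were already known from earlier work on these data and are no independent support.

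The combined treatment against control shares its libraries with the comparisons above. Dusp1 fell by 0.47 ± 0.15 (adjusted p = 0.0482), 1 of 10 members, beside 20.3% of all genes called and 8.95% called lower. Its change ran from -0.79 to -0.19 when 1 library was left out, with or without the block. With the block the call was lost in 7 of the 12 fits that each left out 1 library: without control libraries 1 (0.196) or 2 (0.166), GW3965 libraries 1 (0.0688) or 2 (0.0661), CT99021 library 2 (0.0516), or libraries 1 (0.155) or 2 (0.185) of the combined treatment. In library 3 of this group Dusp1 was level with control (log2 ratio 0.01), while in 1 and 2 it was lower by 0.71 and 0.72. Fos at -0.27 ± 0.25 (adjusted p = 0.475) and Fosb at -0.26 ± 0.27 (0.530) did not pass. Their ratios to control were below 0 in libraries 1 and 2 but above 0 in library 3 (0.48 and 0.25). The same held for Nr4a1 (0.65 in library 3) and Arc (0.52). Egr1 and Ier2 were higher in all 3 libraries than in any control, as were 9.12% of all genes; their changes of 0.75 ± 0.30 (adjusted p = 0.102) and 0.33 ± 0.13 (0.0927) did not pass. Without the block 0 members passed, 1 had an unadjusted p under 0.05, and 0.115% of all genes passed.

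Whether GW3965 altered the response to CT99021 was tested as the interaction of the compounds. It was called for 0 of 10 members and for 0% of all genes, both with and without the block, and 0 members had an unadjusted p under 0.05. The medians were -0.07 with the block for the members and 0.02 for all genes. Fosb, the member with the largest change for CT99021 against control, had changes of -0.92 ± 0.28 without GW3965 and -0.72 ± 0.27 with it.

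The wider rapid response program was read from a list of 50 further genes (other AP-1, Egr, Nr4a and Klf members, Dusp phosphatases, feedback proteins and secreted early products). With CT99021 over both backgrounds, 19 of 50 passed: 12 fell and 7 rose, with a median of -0.06, beside 35% of all genes called, 15.9% lower and 19.1% higher. Leaving out 1 library gave 10 to 14 lower and 4 to 7 higher, and leaving out the libraries numbered 3 gave 19 lower and 10 higher, beside 42.7% of all genes. Without the block 5 fell (Rgs2, Ctgf, Dusp6, Npas4 and Nr4a3) and 0 rose, beside 4.1% of all genes. For CT99021 against control alone 9 fell and 2 rose (15.8% of all genes called), for both compounds against control 10 fell and 7 rose (20.3%), and for GW3965 against control 0 passed. The 2-gene and 9-gene counts for CT99021 against control became 0 and 3 without control library 2.

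Dusp6 and Rgs2, feedback proteins of ERK and of G protein signalling, and the nuclear receptor gene Nr4a3 were among those that fell. Dusp6, the phosphatase that acts on ERK in the cytoplasm, fell by 0.75 ± 0.05 over both backgrounds, from 423 ± 107 CPM in control to 262 ± 56.7 with CT99021 and from 441 ± 83.9 with GW3965 to 248.5 ± 42.8 with both (SD, n = 3). Rgs2, which shortens signalling through Gq, fell by 0.76 ± 0.07, from 108 ± 7.22 to 63.4 ± 3.82 CPM and from 108 ± 7.45 to 64.3 ± 8.52. Nr4a3, the relative of Nr4a1, fell by 1.03 ± 0.12 from 11.3 ± 3.46 CPM in control to 5.27 ± 0.714 with CT99021. Dusp6, Rgs2 and Nr4a3 passed in all 21 fits with the block in each of the 4 comparisons of CT99021. Of the other Dusp phosphatases listed, Dusp4 also fell over both backgrounds, while Dusp2 and Dusp5 did not pass. Fosl2, a relative of Fos, rose there and passed in 17 of 21 fits.

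Ctgf, a matricellular protein and target of YAP, fell by 1.78 ± 0.26, Klf2, a zinc finger factor, by 1.46 ± 0.28, Myc fell by 0.59 ± 0.10, Socs3, an inhibitor of cytokine receptors, fell by 0.58 ± 0.09 and Btg1, an antiproliferative protein, fell by 0.29 ± 0.07. Among those that rose, Gem, a small GTPase, rose by 0.79 ± 0.15, Gadd45g, a stress and growth arrest protein, by 0.58 ± 0.08, Plk3, a polo kinase, by 0.52 ± 0.15 and Mcl1, a survival protein, by 0.25 ± 0.05. All of these had adjusted p-values under 0.05 in edgeR's blocked fit over both backgrounds. In that contrast Plk3 did so in 18 of 21 fits and the other 8 in 21 of 21. For CT99021 against control alone they were less stable, from 1 of 21 fits for Gem to 20 for Ctgf and Gadd45g. Plk3 passed there in 5 of 21 fits and Klf2 in 8. For both compounds against GW3965, Btg1 passed in 0 of 21. Ptgs2 and Atf3, picked after their values were seen, had higher values with GW3965 in number 3. The ratios for Atf3, a stress-induced factor, were 2.67 and 2.95 there and ran from -0.41 to 0.34 in numbers 1 and 2. For Ptgs2, which makes prostaglandins, the ratio to control was 2.23 there and ran from 0.14 to 0.83 over both comparisons of numbers 1 and 2.

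**Figure D4:**
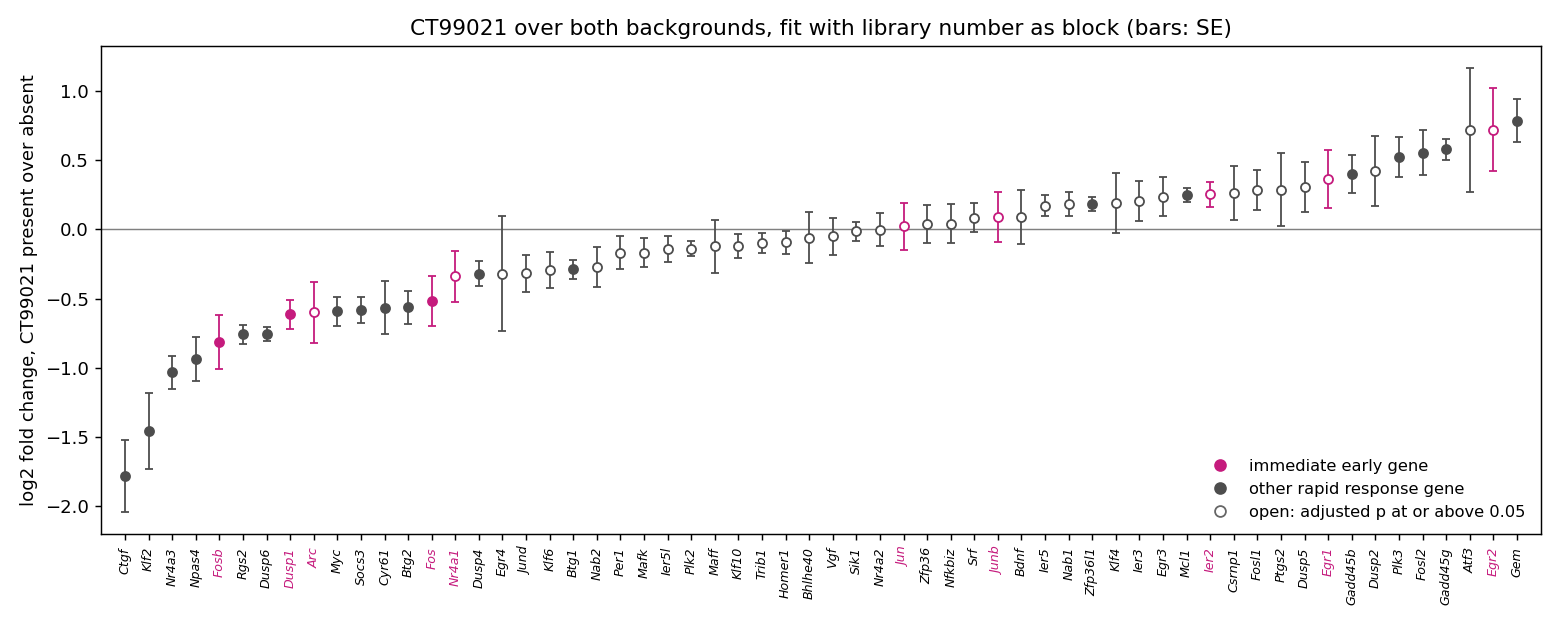
Log2 fold change (vertical axis; bars are SE) with CT99021 present over absent, over both backgrounds, from the fit with library number as a block, for the 10 immediate early genes (pink) and 50 other rapid response genes (grey), in order of size. Filled points passed the test: Fosb, Dusp1 and Fos among the members, and 12 lower and 7 higher among the others.

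Of 24 upstream regulators listed (MAP kinases, ribosomal S6 kinases, CREB, serum response factor partners), 5 passed over both backgrounds, Mapk7, Mapk14 and Map2k1 higher and Elk3 and Rps6ka5 lower (Mapk14 and Elk3 are named after their values were seen), beside 35% of all genes. Without the block Rps6ka5 alone passed, and with it Elk3 passed in 12 of 21 fits and the 3 that rose in 21 of 21. Rps6ka5, which encodes MSK1, the kinase that phosphorylates CREB and histone H3 at immediate early promoters, fell by 1.43 ± 0.08, from 15.8 ± 2.67 CPM in control to 5.93 ± 0.697 with CT99021 and from 17.0 ± 3.38 with GW3965 to 6.19 ± 1.41 with both. Its 6 ratios ran from -1.56 to -1.26, and it passed in all 21 fits with the block in each of the 4 comparisons. Map2k1, the ERK kinase MEK1, rose by 0.39 ± 0.06 and Mapk7, which encodes ERK5, by 0.32 ± 0.05. Rps6ka2, a ribosomal S6 kinase, rose by 0.61 ± 0.17 with both compounds against control (adjusted p = 0.0307), in 16 of 21 fits with the block, where its change ran from 0.34 to 0.73. For GW3965 against control 0 of 24 passed.

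Library number and group shared the variance of the members unequally. Group took 59.0% of the variance of log2 CPM for Fosb, 48.5% for Dusp1 and 45.4% for Ier2, against 4.24% for Junb and 14.9% for Nr4a1, beside a median of 21.8% over all genes tested. Library number took 58.4% for Junb and 57.7% for Nr4a1 and only 9.74% for Egr1, beside a median of 53.9%. What neither took, which holds the difference of number 3 between groups, was 54.8% for Egr1 and 10.8% for Dusp1, beside a median of 16.2%.

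The mean profile of the 10, each centred on its own mean log2 CPM, was highest in GW3965 library 3 at 0.67, then in library 3 of both compounds at 0.31 and control library 1 at 0.31, and lowest in CT99021 library 3 at -0.52. The 8 genes with the smallest root mean square difference from it over the 12 libraries, among 12262 genes at 5 CPM or more, were Pde4dip (locus 1; 0.1504), Acvr1 (0.154), BC022687 (0.157), Jund (0.159), Tanc2 (0.160), Hcn4 (0.161), Rabgap1l (0.165) and Zbtb7b (0.167), beside a median of 0.447. Jund, another Jun relative, was the only one of these on the list of other rapid response genes. The members themselves differed from this mean by 0.165 (Jun) to 0.639 (Egr2), so it is not a profile that all 10 share.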

How the data were processed

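Per the labels, 12 libraries were made from total RNA with Illumina TruSeq chemistry, 3 for each of 4 groups. The authors deposited whole-number read counts per feature, 23965 gene rows and 1217 repeat rows. Per the submitters' processing notes, Bowtie was used with mm9. For the counting program, annotation and strand setting the answer is not given in the sources used here, so antisense or overlapping transcripts cannot be told apart from a gene. Repeat rows, 0.196% to 0.643% of a library's counts, were left out, with the highest share in CT99021 library 1. Library totals were 9646424 to 21314093 counts, which sets the counting error of the low genes.

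CPM used TMM factors. The fixed test was edgeR 4.0.16 (R 4.3.3), the quasi-likelihood F test in 1 fit of all 12 libraries with a mean per group, after filterByExpr (15608 genes), with Benjamini-Hochberg adjusted p under 0.05 as the threshold. The paired fit added library number as a block. Same-number libraries deviated together in 18 of 18 pairs (r = 0.496 to 0.828 across genes, median 0.752; different numbers -0.677 to 0.241), so the numbers pair the libraries on evidence from the data, not the labels. No replicate pair agreed within sampling noise (chi-square per gene at least 29.0). The largest values, 114 and 141, belonged to CT99021 library 1 against libraries 2 and 3 of its group. Alternatives were RLE factors, library totals, other filters, DESeq2 1.42.0, limma-voom 3.58.1 and left-out libraries. Scripts were tested on simulated data.

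The members and gene lists were chosen with earlier results of these data known. Named were all members, the other rapid response genes (up to 8) and regulators (up to 4) with the smallest p past the paired test in each treatment against control, and the 8 genes most alike in profile; any other gene was chosen after its values were seen. Log2 ratios of libraries used a prior count of 2. Promoters are RefSeq sequences on GRCm38.p6, a later build than that of the counts, and were used for their letters only.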

Additional observations from a re-analysis of the deposited data

How the results depend on the processing

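The counts of members past the test depended on the pairing. Without the block, 0 of 10 passed in every contrast under each setting, except for CT99021 over both backgrounds with the libraries numbered 3 left out (2) or without library 3 of the combined treatment alone (1). With the replicate block, CT99021 against control gave 1, and also 1 with no low count filter or a filter at 1 CPM, 2 with RLE factors, library totals, DESeq2 or limma-voom, 5 once all libraries numbered 3 were left out, and 7 when library 2 of the combined treatment was left out too (7 libraries). The combined treatment gave 1 against control and 1 against GW3965 in all these blocked settings, except 4 and 4 in the last 2 sets of libraries. CT99021 over both backgrounds gave 3 with the block, RLE factors or either filter, 4 with library totals, 5 with DESeq2, 6 with limma-voom, and 9 in each of the last 2 sets. Leaving out 1 library, with or without the block, gave 0 to 2 in each of the first 3 contrasts and 0 to 5 over both backgrounds. GW3965 contrasts, both compounds against CT99021 and the interaction stayed at 0 in every setting run.

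Jun over both backgrounds had the opposite sign without the block with RLE factors (-0.0093), library totals (-0.059), no low count filter (-0.016) and DESeq2 (-0.0093), and with block and library totals (-0.041); left-out libraries gave -0.13 to 0.18. Junb turned to -0.0050 with library totals and ran from -0.080 to 0.33 with left-out libraries. Left-out libraries, with or without the block, also moved other members over both backgrounds: Nr4a1 -0.61 to -0.13, Egr2 0.36 to 0.99, Egr1 0.21 to 0.59 and Fos -0.70 to -0.35. Against control with CT99021 Fos ran from -0.69 to -0.22, and with both compounds against GW3965 Fos ran from -0.93 to -0.23, Fosb from -1.05 to -0.32 and Dusp1 from -1.02 to -0.38. The cause was not tested. No other member result given above from the CT99021 contrasts changed sign. With library totals and the block, 1382 of 2022 genes called for CT99021 against control were lower (1185 of 2470 with TMM), 1506 of 2688 for both compounds against GW3965 (1375 of 3216) and 3007 of 5010 over both backgrounds (2484 of 5461). For CT99021 against control, 2470 genes were called in all, and 3869 and 5398 in those same 2 reduced sets. With the 250 bases before the start alone, TATAAA was found in 1 member in place of 2; other motif counts did not change. Counts of 21 to 107 per library limit Egr2 and Fosb.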
